A study of Mus musculus with 12 samples.

Results

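Macrophage transcripts of the gonadal (peri-uterine) white fat of pregnant mice are described here through 33 named genes, out of 20632 gene symbols counted. The genes were chosen by name, as markers of these cells, and no measured value enters the rule. The choice was made with earlier results of these data known, so shares of members given below are descriptions and not tests. They fall into 20 genes of resident tissue macrophages, which include the F4/80 gene Emr1 (Adgre1 in current annotation), Cd163, Mrc1 and the C1q chains, and 13 genes linked with lipid-associated macrophages, which include Itgax, Trem2, Gpnmb and Cd9. All 33 symbols were found in the deposited counts, and 32 had enough counts to be tested. Spp1, the osteopontin gene, was not tested.

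Fat was taken at stage E17.5 of pregnancy and read by 3′ RNA sequencing, in which reads are counted near the end of a transcript, from 3 groups of 4 libraries. KO Treg animals carried Tnfrsf11a (Rank) with Foxn1 Cre, labelled a knockout, and received the treatment labelled Treg. KO vehicle animals had the same genotype and received vehicle. WT vehicle animals were Cre-negative, labelled wildtype, and received vehicle, so the knockouts given Treg have no wild type counterpart. Foxn1-Cre acts in thymic epithelium, so that a loss of Tnfrsf11a, which encodes RANK, is aimed at the thymus and not at the macrophages of fat. The labels do not describe the Treg treatment further and give no age of the dams. They number each library separately, taken here as 1 animal each, and p-values measure the spread between these samples.

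Resident macrophages of fat clear dying cells and debris, produce complement C1q and carry scavenger and mannose receptors. Lipid-associated macrophages gather where adipocytes enlarge or die, take up lipid through the receptor TREM2 and its adaptor TYROBP, and break it down in lysosomes. Cathepsins, tetraspanins and the lipid droplet coat protein perilipin 2 are also made by adipocytes and stromal cells, so in whole fat the lipid-associated genes are not read from macrophages alone. Some resident members, such as Itgam and Lyz2, are genes of myeloid cells in general, so that part is not specific to resident macrophages either. Since whole fat was sequenced, fewer cells of a type and less RNA per cell cannot be told apart.

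Promoter windows of 4 genes are shown because their values differ in pattern. Itgax and Cd68 stood highest in KO vehicle, Cd63 stood lowest there, and Ctsd was similar in all groups. Each window runs from 250 bases before to 50 bases after the start of the gene in RefSeq on GRCm38.p6, 5′ to 3′ on the strand of the gene. Capitals mark 3 motifs searched on both strands: GAGGAA, the core bound by the myeloid factor PU.1 and its relatives, CACGTG, an E-box bound by TFEB and its relatives, and TGANTCA, the AP-1 motif. The windows are chr7:128129300-128129599 (plus strand) for Itgax, chr11:69666121-69666420 (minus) for Cd68, chr10:128909095-128909394 (plus) for Cd63 and chr7:142387778-142388077 (minus) for Ctsd.
Itgax: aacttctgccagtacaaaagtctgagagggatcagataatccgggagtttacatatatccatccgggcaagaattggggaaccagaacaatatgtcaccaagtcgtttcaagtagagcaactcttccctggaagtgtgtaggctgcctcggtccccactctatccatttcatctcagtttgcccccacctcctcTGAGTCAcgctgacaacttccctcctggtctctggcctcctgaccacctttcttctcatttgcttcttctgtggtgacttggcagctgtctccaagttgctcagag
Cd68: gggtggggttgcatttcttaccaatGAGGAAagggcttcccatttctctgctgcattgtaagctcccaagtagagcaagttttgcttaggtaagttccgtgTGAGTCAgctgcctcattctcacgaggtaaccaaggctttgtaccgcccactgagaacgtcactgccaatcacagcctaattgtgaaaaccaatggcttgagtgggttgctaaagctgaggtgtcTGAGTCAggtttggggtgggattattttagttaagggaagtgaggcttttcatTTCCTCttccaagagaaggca
Cd63: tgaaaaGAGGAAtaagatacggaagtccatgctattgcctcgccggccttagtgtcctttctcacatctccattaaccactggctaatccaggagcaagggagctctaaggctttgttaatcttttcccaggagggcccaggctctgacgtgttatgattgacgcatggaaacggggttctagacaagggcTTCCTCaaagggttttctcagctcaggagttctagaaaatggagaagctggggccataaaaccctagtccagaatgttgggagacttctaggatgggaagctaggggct
Ctsd: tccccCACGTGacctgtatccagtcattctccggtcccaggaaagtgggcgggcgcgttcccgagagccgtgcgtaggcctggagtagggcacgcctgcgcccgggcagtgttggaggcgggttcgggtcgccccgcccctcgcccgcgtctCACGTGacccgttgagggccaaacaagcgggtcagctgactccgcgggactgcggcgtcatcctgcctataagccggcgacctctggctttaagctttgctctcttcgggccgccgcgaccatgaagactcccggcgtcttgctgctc

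Of the 33 members, 25 had a promoter entry. Of these, 4 had more than 1 entry, and the counts use the first entry listed. GAGGAA was found in 8 of the 13 resident windows (61.5%) and in 5 of the 12 lipid-associated windows (41.7%), against 28.3% of 32851 promoters of the same length. CACGTG was found in none of the 13 resident windows and in 3 of the 12 lipid-associated windows, those of Ctsd, Ctsl and Plin2, against 7.15% of promoters. TGANTCA was found in the Cd68 window among the resident genes and in those of Itgax, Trem2 and Gpnmb among the lipid-associated genes, against 7.81% of promoters. The second entries of Folr2, Ms4a7 and Mmp12 also held TGANTCA, and the second entry of Spp1 held none of the 3 motifs. No motif overlapped another in the 4 windows shown. A match describes these letters only and is not evidence of binding.

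The libraries held 5551967 to 12972655 counts each. At these depths 3 counts equal 0.231 to 0.540 CPM (library-scaled counts), a floor for counting error only. No 2 libraries agreed within sampling noise, and the adipocyte marker Adipoq stood at 3881 to 5993 CPM in all of them. Tnfrsf11a had 44 to 90 counts in each library and Foxn1 had 0, and neither checks a deletion in the thymus. Placental markers (8 genes summed) stood at 97.3 CPM in KO Treg 2 and at 37.7 CPM in KO vehicle 1, and at no more than 2.15 CPM in the other libraries, so results are also given without these 2 libraries. Animal numbers come in a lower and a higher run, called number series here, and no label names them a batch. KO Treg and WT vehicle have 2 animals in each, while every KO vehicle number is in the lower one.

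Levels below are CPM on TMM-scaled library totals, as mean ± SD over 4 animals, and differences are log2 fold changes ± standard error (SE) of an edgeR quasi-likelihood fit of all 12 libraries. No member passed an adjusted p of 0.05 in any of the 3 comparisons. All further differences are therefore given as values. The plot of 12 members by library shows those with the smallest unadjusted p in KO vehicle against WT vehicle. It also shows Trem2, Gpnmb, Mmp12 and Atp6v0d2, which varied widely within groups.

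**Figure D1:**
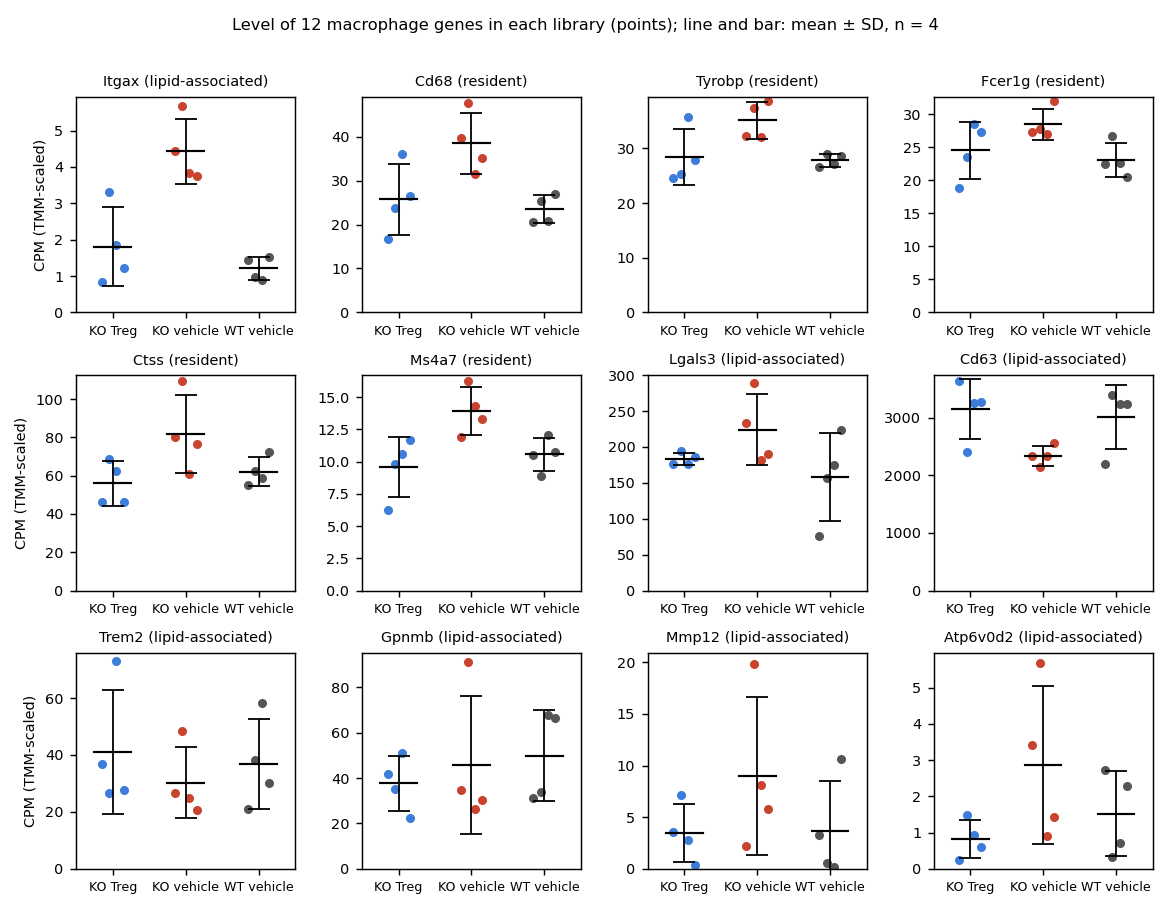
CPM of 12 members (vertical axis, TMM-scaled, from 0) in each library (points) of KO Treg, KO vehicle and WT vehicle, with the mean and SD of 4 animals as a line and bar. Itgax, Cd68, Tyrobp and Fcer1g were higher in all 4 KO vehicle libraries than in any WT vehicle library, while Trem2, Gpnmb, Mmp12 and Atp6v0d2 varied widely within groups.

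Emr1, Csf1r and Itgam, cell surface genes of macrophages and, for Itgam, of other myeloid cells, had close means in the 3 groups. Emr1 stood at 11.3 ± 1.61 CPM in KO Treg, 13.0 ± 1.57 CPM in KO vehicle and 12 ± 3.18 CPM in WT vehicle. Csf1r, the receptor for the macrophage growth factor CSF1, stood at 103 ± 16.3, 109 ± 16.4 and 100.3 ± 14.6 CPM in KO Treg, KO vehicle and WT vehicle. Itgam, the integrin alpha chain CD11b of myeloid cells, stood at 8.65 ± 1.24, 9.15 ± 2.09 and 8.08 ± 1.87 CPM in the same order of groups. The groups overlapped for all 3 genes in each comparison. Csf1r shares exon sequence with Hmgxb3 on the opposite strand and Itgam with Gm49368 on the same strand, so reads there may be split between genes.

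Scavenger and lectin receptors of resident macrophages also overlapped between groups. Cd163, the haemoglobin scavenger receptor, stood at 163 ± 41.1 CPM in KO Treg, 139.9 ± 35.2 CPM in KO vehicle and 139.1 ± 12.9 CPM in WT vehicle. Mrc1, the mannose receptor CD206, was at 89.2 ± 13.2, 101 ± 23.2 and 96.1 ± 5.37 CPM in KO Treg, KO vehicle and WT vehicle. Clec10a, a lectin for galactose-type sugars, stood at 378 ± 80.7 CPM in KO Treg, 403 ± 92.2 CPM in KO vehicle and 320 ± 23.6 CPM in WT vehicle. Its near copy Mgl2 may share reads with it. Folr2, a folate receptor of perivascular macrophages, was at 64.7 ± 19.0, 49.1 ± 14.8 and 51.1 ± 20.5 CPM in KO Treg, KO vehicle and WT vehicle, and it overlaps Gm10602 on the opposite strand. Mertk, a receptor for dying cells, was at 2.01 ± 0.603, 1.37 ± 0.687 and 1.75 ± 0.431 CPM, from 7 to 28 counts a library. Cd14, the lipopolysaccharide co-receptor, stood at 4.81 ± 1.99 CPM in KO Treg, 3.99 ± 1.17 CPM in KO vehicle and 5.50 ± 1.97 CPM in WT vehicle. Mertk, Cd14 and Folr2 were the only resident members with a lower mean in KO vehicle than in WT vehicle.

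Lyve1, the hyaluronan receptor of a perivascular macrophage subset and of lymphatic vessels, was at 21.5 ± 5.67 CPM in KO Treg, 23.8 ± 16.8 CPM in KO vehicle and 18.4 ± 6.05 CPM in WT vehicle. Its highest and lowest libraries were both in KO vehicle, at 48.3 CPM in animal 1 and 10.1 CPM in animal 3. Of 6 lymphatic endothelial markers, Ccl21a and Mmrn1 were at 0 in all 12 libraries and Prox1 reached at most 0.380 CPM. The 6 summed to 74.3 to 115 CPM in KO Treg, 85.0 to 121 CPM in KO vehicle and 78.4 to 96.5 CPM in WT vehicle, most of it Pdpn, which fibroblasts also make. KO vehicle 1, the library with the most Lyve1, had the lowest summed lymphatic markers of its group.

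Complement C1q is built from the chains of C1qa, C1qb and C1qc, which lie side by side on chromosome 4, with 2851 bases between C1qc and C1qa and 3616 bases between C1qb and C1qc. C1qa stood at 384 ± 72.6, 457 ± 83.5 and 388 ± 27.6 CPM in KO Treg, KO vehicle and WT vehicle. C1qb stood at 47.8 ± 14.9, 53.1 ± 12.4 and 49.9 ± 4.85 CPM in the same groups. C1qc stood at 66.4 ± 8.99, 73.9 ± 13.6 and 64.9 ± 8.16 CPM. All 3 chains were highest in KO vehicle 4, and the KO vehicle means exceeded those of both other groups by less than the SD of the KO vehicle animals. Lyz2, the lysozyme of myeloid cells, was at 67.8 ± 24.2, 86.0 ± 18.5 and 69.7 ± 26.6 CPM in KO Treg, KO vehicle and WT vehicle, and its near copy Lyz1 may take some of its reads.

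Cd68 had the smallest p of the resident members in KO vehicle against WT vehicle. This gene, which encodes a glycoprotein of endosomes and lysosomes, read 39.7, 47.6, 31.5 and 35.2 CPM in the KO vehicle animals, against 20.6, 25.4, 20.8 and 26.9 CPM in the WT vehicle animals. Every KO vehicle library lay above every WT vehicle library. The difference was 0.72 ± 0.20 (adjusted p = 0.146), with means of 38.5 ± 6.90 CPM in KO vehicle and 23.4 ± 3.19 CPM in WT vehicle. Its adjusted p lay between 0.0544 and 0.345 over 23 alternative settings, and the difference was 0.73 in the lower number series alone and 0.88 with the series as a covariate. In KO Treg, Cd68 read 16.6, 23.8, 36.1 and 26.6 CPM, and 1 animal exceeded 2 of the KO vehicle animals. Its difference from KO vehicle was -0.59 ± 0.20 (adjusted p = 0.409), and -0.91 in the lower number series alone.

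Tyrobp and Fcer1g encode the signalling adaptors of TREM2 and of Fc receptors. Tyrobp read 32.3, 37.3, 32.1 and 38.7 CPM in KO vehicle, against 26.5, 29.0, 27.1 and 28.5 CPM in WT vehicle. Fcer1g read 27.3, 27.7, 27.0 and 31.99 CPM in KO vehicle, against 22.5, 26.7, 22.6 and 20.5 CPM in WT vehicle. For both genes the KO vehicle libraries lay above all WT vehicle libraries, by a narrow gap for Fcer1g. The log2 fold change was 0.34 ± 0.14 for Tyrobp (adjusted p = 0.312) and 0.30 ± 0.15 for Fcer1g (adjusted p = 0.423). In KO Treg, Tyrobp averaged 28.4 ± 5.09 CPM and Fcer1g 24.5 ± 4.34 CPM. Against KO vehicle, Tyrobp differed by -0.31 ± 0.14 (adjusted p = 0.529) and by -0.47 in the lower number series alone, and the groups overlapped through KO Treg 3, at 35.7 CPM. Tyrobp lies 126 bases from Hcst, which encodes another adaptor, DAP10.

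Ctss, the cathepsin of antigen presentation, read 46.1, 68.9, 62.6 and 46.1 CPM in KO Treg, 80.4, 109, 61.0 and 76.6 CPM in KO vehicle, and 55.1, 62.6, 58.6 and 72.3 CPM in WT vehicle. KO vehicle 3 lay within the range of both other groups. The difference was 0.40 ± 0.18 for KO vehicle against WT vehicle (adjusted p = 0.371) and -0.55 ± 0.18 for KO Treg against KO vehicle (adjusted p = 0.378), and without KO vehicle 2 these were 0.21 and -0.36. Ms4a7, a tetraspan membrane protein of macrophages, read 6.28, 9.82, 10.6 and 11.7 CPM in KO Treg, 11.9, 16.2, 14.3 and 13.3 CPM in KO vehicle, and 10.5, 8.90, 12.04 and 10.8 CPM in WT vehicle. All KO Treg libraries lay below all KO vehicle libraries, while KO vehicle and WT vehicle overlapped in 1 library of each. Its difference was -0.54 ± 0.19 for KO Treg against KO vehicle (adjusted p = 0.441) and 0.40 ± 0.19 for KO vehicle against WT vehicle (adjusted p = 0.407). Fcgr1, the high-affinity IgG receptor CD64, averaged 4.01 ± 0.784 CPM in KO Treg, 5.72 ± 1.39 CPM in KO vehicle and 5.18 ± 1.15 CPM in WT vehicle. Its KO Treg libraries, at 2.86 to 4.50 CPM, lay below the KO vehicle libraries, at 4.68 to 7.75 CPM.

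Itgax, the integrin alpha chain CD11c of adipose macrophages recruited in obesity and of dendritic cells, showed the largest difference by p-value of all members. It read 0.830, 3.31, 1.86 and 1.21 CPM in KO Treg, 4.45, 5.69, 3.83 and 3.76 CPM in KO vehicle, and 1.45, 0.965, 0.898 and 1.52 CPM in WT vehicle, from 5 to 55 counts a library. The 4 KO vehicle libraries lay above all 8 others. KO vehicle exceeded WT vehicle by 1.84 ± 0.38, a 3.58-fold difference (edgeR adjusted p = 0.0597, higher in 4 of 4 animals), and Itgax ranked 40 of 12175 genes by p-value. KO Treg differed from KO vehicle by -1.29 ± 0.37 (adjusted p = 0.306) and from WT vehicle by 0.55 ± 0.41, which was 0.06 without KO Treg 2. The difference between KO vehicle and WT vehicle was 1.84 in the lower number series alone (adjusted p = 0.245) and 1.74 with the series as a covariate (0.119). It passed 0.05 in 5 of 23 alternatives, with DESeq2 (adjusted p = 0.0021), in a fit of the 8 libraries of the comparison, and without KO Treg 1, KO Treg 2 or WT vehicle 4.

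Other markers of dendritic cells were divided. Batf3, a transcription factor of conventional dendritic cells, stood at 3.31 ± 0.415 CPM in KO Treg, 4.84 ± 1.53 CPM in KO vehicle and 3.30 ± 1.15 CPM in WT vehicle. Fscn1, an actin-bundling protein of mature dendritic cells, stood at 20.1 ± 1.66, 25.7 ± 4.59 and 19.9 ± 5.82 CPM in the same groups. Their differences were 0.58 ± 0.30 (adjusted p = 0.446) and 0.37 ± 0.20 (adjusted p = 0.465) for KO vehicle against WT vehicle, and -0.55 ± 0.29 (adjusted p = 0.637) and -0.35 ± 0.20 (adjusted p = 0.651) for KO Treg against KO vehicle. Both genes thus had their highest mean in KO vehicle, as Itgax did, and their groups overlapped. Siglech ran the other way, at 2.67 ± 0.615 CPM in KO Treg, 1.70 ± 0.771 CPM in KO vehicle and 2.27 ± 1.40 CPM in WT vehicle. It differed by -0.36 ± 0.42 for KO vehicle against WT vehicle (adjusted p = 0.796) and by 0.65 ± 0.42 for KO Treg against KO vehicle (adjusted p = 0.705). Flt3 reached at most 0.406 CPM, and Zbtb46 stood at 2.66 ± 1.16 CPM in KO Treg, 3.02 ± 1.48 CPM in KO vehicle and 2.93 ± 1.07 CPM in WT vehicle. The 9 dendritic cell markers summed to 28.7 to 34.5 CPM in KO Treg, 28.1 to 43.0 CPM in KO vehicle and 23.0 to 40.1 CPM in WT vehicle. Of the 6 tested, 3 lay above 0 in KO vehicle against WT vehicle and 0 were called in any comparison. The part of dendritic cells in the Itgax values was not tested. Itgam, which lies 11055 bases from Itgax on chromosome 7, differed between KO vehicle and WT vehicle by 0.17 ± 0.22.

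Among the lipid-associated members, Trem2, Gpnmb and Cd9 varied mainly between animals of 1 group. Trem2, the lipid-sensing receptor, read 36.9, 26.6, 73.0 and 27.8 CPM in KO Treg, 26.6, 48.5, 24.8 and 20.8 CPM in KO vehicle, and 20.8, 38.3, 58.2 and 30.0 CPM in WT vehicle. Gpnmb, a glycoprotein of lysosome-rich phagocytes, read 41.8, 35.2, 51.0 and 22.5 CPM in KO Treg, 34.8, 91.3, 26.5 and 30.4 CPM in KO vehicle, and 31.4, 34.0, 67.7 and 66.5 CPM in WT vehicle. The groups overlapped for both genes, and the highest library was 3.51-fold above the lowest for Trem2 and 4.065-fold for Gpnmb. Cd9, a tetraspanin, was at 14.1 ± 3.43 CPM in KO Treg, 12.5 ± 4.99 CPM in KO vehicle and 16.7 ± 6.84 CPM in WT vehicle, and it overlaps Gm26728 on the opposite strand. Against WT vehicle, KO vehicle differed by -0.27 ± 0.41 for Trem2, by -0.12 ± 0.44 for Gpnmb and by -0.41 ± 0.32 for Cd9. The differences of Trem2 and Gpnmb were smaller than their SE.

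Spp1 had 0 counts in all 4 KO Treg libraries, 1 to 5 counts in the KO vehicle libraries, and 0 counts in 3 WT vehicle libraries with 4 counts in the other. Its highest level was 0.508 CPM, at or near the level of 3 counts, and no fold change is given.

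Mmp12, the macrophage elastase, and Atp6v0d2, a proton pump subunit of osteoclasts and lipid-loaded macrophages, had the widest ranges. Mmp12 read 3.56, 7.19, 2.80 and 0.364 CPM in KO Treg, 2.17, 19.9, 8.11 and 5.79 CPM in KO vehicle, and 3.30, 0.536, 0.180 and 10.6 CPM in WT vehicle. The highest library held 192 counts and the lowest 1 count, and Mmp1b overlaps the gene on the opposite strand. Atp6v0d2 read 0.237, 1.48, 0.932 and 0.607 CPM in KO Treg, 3.42, 5.69, 0.901 and 1.42 CPM in KO vehicle, and 2.73, 0.322, 0.719 and 2.28 CPM in WT vehicle. All groups overlapped for both genes. KO vehicle differed from WT vehicle by 1.28 ± 1.01 for Mmp12 and by 0.86 ± 0.64 for Atp6v0d2 (adjusted p = 0.646), and KO Treg differed from KO vehicle by -1.79 ± 0.70 for Atp6v0d2 (adjusted p = 0.472). Over 23 alternatives the Atp6v0d2 difference between KO vehicle and WT vehicle lay between 0.26, without KO vehicle 2, and 1.34, without WT vehicle 1. That between KO Treg and KO vehicle was -1.19 without KO vehicle 2. Mertk, Itgax, Mmp12 and Atp6v0d2 were the 4 tested members that stayed below the filter level of 1.15 CPM in some libraries. Itgax reached it in 3 KO Treg, 4 KO vehicle and 2 WT vehicle libraries, and Atp6v0d2 in 1, 3 and 2 libraries of those groups.

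Cd63, a tetraspanin of late endosomes and lysosomes that many cell types make, ran the other way. It read 3637, 2404, 3252 and 3272 CPM in KO Treg, 2326, 2141, 2331 and 2564 CPM in KO vehicle, and 2188, 3382, 3237 and 3233 CPM in WT vehicle. All 4 KO vehicle libraries lay below 3 libraries of each other group, and KO Treg 2 and WT vehicle 1 fell among them. The difference was -0.36 ± 0.16 for KO vehicle against WT vehicle (adjusted p = 0.357) and 0.42 ± 0.16 for KO Treg against KO vehicle (adjusted p = 0.461). Adipocyte markers were divided, with 6 of 9 above 0 in KO vehicle against WT vehicle (median 0.07) and none called. Their sum was lowest in KO vehicle, at 47422 to 60444 CPM in KO Treg, 33203 to 50147 CPM in KO vehicle and 53075 to 70822 CPM in WT vehicle. Most of it was Cfd, the complement factor adipsin, at 40577 ± 5756, 26178 ± 6079 and 46723 ± 7821 CPM in those groups, while Lep, which encodes leptin, averaged 148 ± 48.9, 262 ± 85.8 and 56.5 ± 43.6 CPM. The part of this in the Cd63 values was not tested.

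Lgals3, the galectin of phagocytes, read 177, 194, 176 and 187 CPM in KO Treg, 234, 290, 182 and 191 CPM in KO vehicle, and 75.9, 157, 174 and 224 CPM in WT vehicle. The groups overlapped, and KO vehicle differed from WT vehicle by 0.51 ± 0.25 (adjusted p = 0.427). Over 23 alternatives the difference lay between 0.26, without WT vehicle 1, and 0.93, in the lower number series alone, with an adjusted p between 0.157 and 0.663. Plin2, which coats lipid droplets, averaged 669 ± 26.1 CPM in KO Treg, 901 ± 239.9 CPM in KO vehicle and 754 ± 240.1 CPM in WT vehicle.

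Among lysosomal enzymes, Lipa, the acid lipase that splits cholesteryl esters, read 49.1, 66.1, 84.5 and 55.6 CPM in KO Treg, 90.8, 110.0, 76.2 and 70.0 CPM in KO vehicle, and 99.2, 62.0, 65.2 and 72.9 CPM in WT vehicle. KO Treg 3 lay above 2 of the KO vehicle libraries. KO Treg differed from KO vehicle by -0.44 ± 0.19 (adjusted p = 0.522), or -0.29 without KO vehicle 2, and from WT vehicle by -0.23 ± 0.19, with a range of -0.47 to -0.07 over the alternatives. The groups overlapped for the proteases Ctsd and Ctsl, at 2643 ± 364, 2617 ± 587 and 2375 ± 633 CPM for Ctsd and 293 ± 27.9, 289.6 ± 82.0 and 250 ± 49.9 CPM for Ctsl in KO Treg, KO vehicle and WT vehicle. Against WT vehicle, Ctsl differed by 0.21 ± 0.19 in KO vehicle and by 0.23 ± 0.19 in KO Treg. Ctsd overlaps Gm49369 and Ctsl overlaps Gm49230, each on the same strand, and both share reads there if the counting allowed it.

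For KO vehicle against WT vehicle, 17 of 20 resident members and 8 of 12 lipid-associated members lay above 0, with medians of 0.18 and 0.21, against 49.2% above 0 and a median of -0.004 over 12175 genes. None of the 32 members passed the adjusted threshold, which 34 genes passed (0.279%). At an unadjusted p under 0.05, 4 of 32 members were higher (12.5%, background 6.98%), Cd68, Tyrobp, Ctss and Itgax. One was lower, Cd63 (3.12%, background 5.45%), with 0 lower when KO vehicle 3, WT vehicle 2, WT vehicle 3 or WT vehicle 4 was left out and 2 without WT vehicle 1. Of the 32 members, 4 were higher with groups that did not overlap (12.5%, background 4.17%), Cd68, Tyrobp, Fcer1g and Itgax, and 0 were lower (background 2.33%). The resident median was 0.11 without KO vehicle 4, 0.20 in the lower series alone and 0.32 with the series as a covariate. The lipid-associated median was 0.13 without KO vehicle 2, 0.12 without WT vehicle 3, 0.23 in the lower series alone and 0.21 with the series as a covariate. Resident members higher at that p numbered 1 when WT vehicle 1, KO vehicle 2 or KO vehicle 4 was left out and 5 without KO Treg 1, and lipid-associated ones 3 without WT vehicle 4. In the lower series alone 1 resident and 2 lipid-associated members were higher at that p, with the series as a covariate 5 and 2 were, and 0 were lower in either fit.

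**Figure D2:**
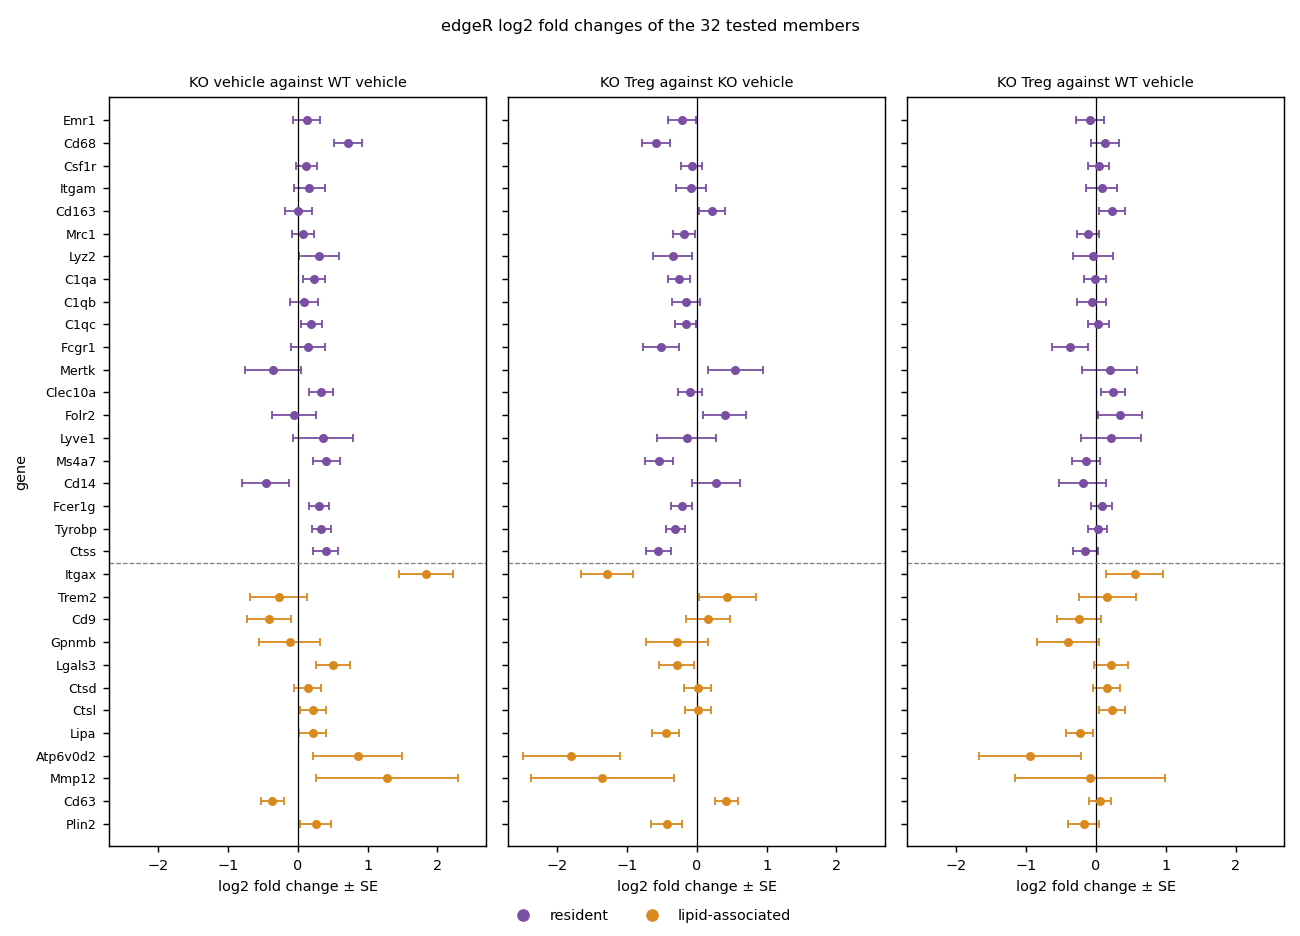
Log2 fold change (horizontal axis) with SE of each of the 32 tested members (rows, resident above the dashed line and lipid-associated below it) in the 3 comparisons. In the left panel 25 of 32 members lie above 0, and in the middle panel 23 lie below 0. In the right panel 17 lie above 0 and 15 below.

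Markers of other cells stood beside these values as follows. The 6 general leukocyte markers summed to 211 to 355 CPM in KO vehicle and 158 to 251 CPM in WT vehicle, and 5 of the 6 were above 0 with none called. Smooth muscle markers were below 0 for 7 of 7 genes (median -1.73), 4 of them at an unadjusted p under 0.05 and none called. They summed to 290 to 783 CPM in KO vehicle and 226 to 2036 CPM in WT vehicle. Mast cell markers were below 0 for 5 of 5 tested genes (median -0.78), 3 of them at an unadjusted p under 0.05 and none called, and the 7 on the list summed to a median of 16.5 CPM in KO vehicle and 28.6 CPM in WT vehicle. Among them, Tpsb2, a mast cell tryptase, read 1.58 to 2.44 CPM in KO vehicle and 2.73 to 6.29 CPM in WT vehicle, without overlap (-1.09 ± 0.36, adjusted p = 0.200). The adipocyte sums did not overlap between KO vehicle and WT vehicle, while Adipoq averaged 4774 ± 889 CPM in KO vehicle and 4547 ± 304 CPM in WT vehicle. The part of these in the macrophage values was not tested.

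KO Treg against KO vehicle shares the KO vehicle libraries with the first comparison, so opposite signs in the 2 comparisons are not independent. Here 16 of 20 resident members and 7 of 12 lipid-associated members lay below 0, with medians of -0.17 and -0.29, against 49.7% of all genes above 0. None passed the adjusted threshold, which 1 gene passed (0.00821%). At an unadjusted p under 0.05, 7 of 32 members were lower (21.9%, background 5.08%): Ctss, Cd68, Ms4a7, Tyrobp, Itgax, Atp6v0d2 and Lipa. One was higher, Cd63 (3.12%, background 3.69%). Of the 7 lower members, Atp6v0d2 reached the filter level in 1 KO Treg, 3 KO vehicle and 2 WT vehicle libraries. It thus passed the filter only with the KO vehicle libraries, where its mean was highest, and its place among the 7 follows in part from that. The groups did not overlap for 3 lower members (9.38%, background 3.03%), Ms4a7, Fcgr1 and Itgax, and for 0 higher ones (background 2.01%). The resident median was -0.11 without KO Treg 1, -0.26 without KO Treg 3 or KO vehicle 3, -0.36 in the lower series alone and -0.29 with the series as a covariate. Without the 2 libraries with placental transcripts it was -0.11, and 7 resident members then lay above 0. The lipid-associated median was -0.19 without KO Treg 4, -0.09 without KO vehicle 2, -0.24 in the lower series alone and -0.34 with the series as a covariate. Resident members lower at that p numbered 2 without KO Treg 1 and 1 without KO vehicle 2, and lipid-associated ones 1 without KO Treg 1, KO Treg 4 or KO vehicle 2. In the lower series alone 7 resident and 2 lipid-associated members were lower at that p, with the series as a covariate 6 and 1 were, and 0 were higher in either fit. Lipid-associated members above 0 numbered 3 without KO vehicle 4. General leukocyte markers summed to 164 to 265 CPM in KO Treg and 211 to 355 CPM in KO vehicle. Mast cell markers lay above 0 for 5 of 5 tested genes, smooth muscle markers for 6 of 7 and T cell markers for 0 of 3, with none called. The part of these in the macrophage values was not tested.

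KO Treg against WT vehicle gave small differences for most members, and it shares its libraries with the other 2 comparisons. Of 20 resident members 11 lay above 0, with a median of 0.03, and of 12 lipid-associated members 6 lay above 0, with a median of -0.01. No gene passed the adjusted threshold in this comparison (0.00%), and DESeq2 called 1 gene, no member. At an unadjusted p under 0.05, 0 members were higher (background 1.54%) or lower (background 1.32%), and 0 had groups that did not overlap (background 0.813% higher and 0.821% lower). The smallest unadjusted p was 0.171, for Fcgr1, at -0.37 ± 0.26. Other differences included 0.24 ± 0.17 for Clec10a, 0.23 ± 0.19 for Cd163, 0.34 ± 0.31 for Folr2, 0.23 ± 0.19 for Ctsl and -0.94 ± 0.73 for Atp6v0d2, each with an adjusted p of 1. Over the alternatives these lay between -0.01 and 0.31 for Clec10a, 0.03 and 0.35 for Cd163, 0.06 and 0.60 for Folr2, 0.10 and 0.44 for Ctsl, -1.44 and -0.44 for Atp6v0d2, and -0.51 and -0.23 for Fcgr1. The resident median lay between -0.13 and 0.09 and the lipid-associated median between -0.08 and 0.12 over 23 alternatives, and each took either sign. Of the lipid-associated members, 3 lay above 0 without WT vehicle 1. A missed threshold with 4 animals a group does not show that KO Treg and WT vehicle were alike.

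The lipid-associated members had wider ranges over the libraries than the resident members, as a description. The highest library stood a median of 2.1-fold above the lowest for the resident members and 3.06-fold for the 12 lipid-associated members, against 1.94-fold over all genes tested. A range over 3-fold was seen for 3 of 20 resident and 6 of 12 lipid-associated members, against 2617 of the 12175 genes tested. Among those 6 were Itgax, Mmp12 and Atp6v0d2, with 5, 1 and 2 counts in their lowest libraries. Among the 3 resident members was Mertk, with 7 counts in its lowest library. Counting error thus enters the ranges of these 4 genes. KO vehicle 2 held the highest value of 7 of the 12 lipid-associated members, while KO vehicle 4 held that of 6 of the 20 resident members. KO Treg 1 held the lowest value of 8 resident members. The map of deviations shows these libraries as columns.

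**Figure D3:**
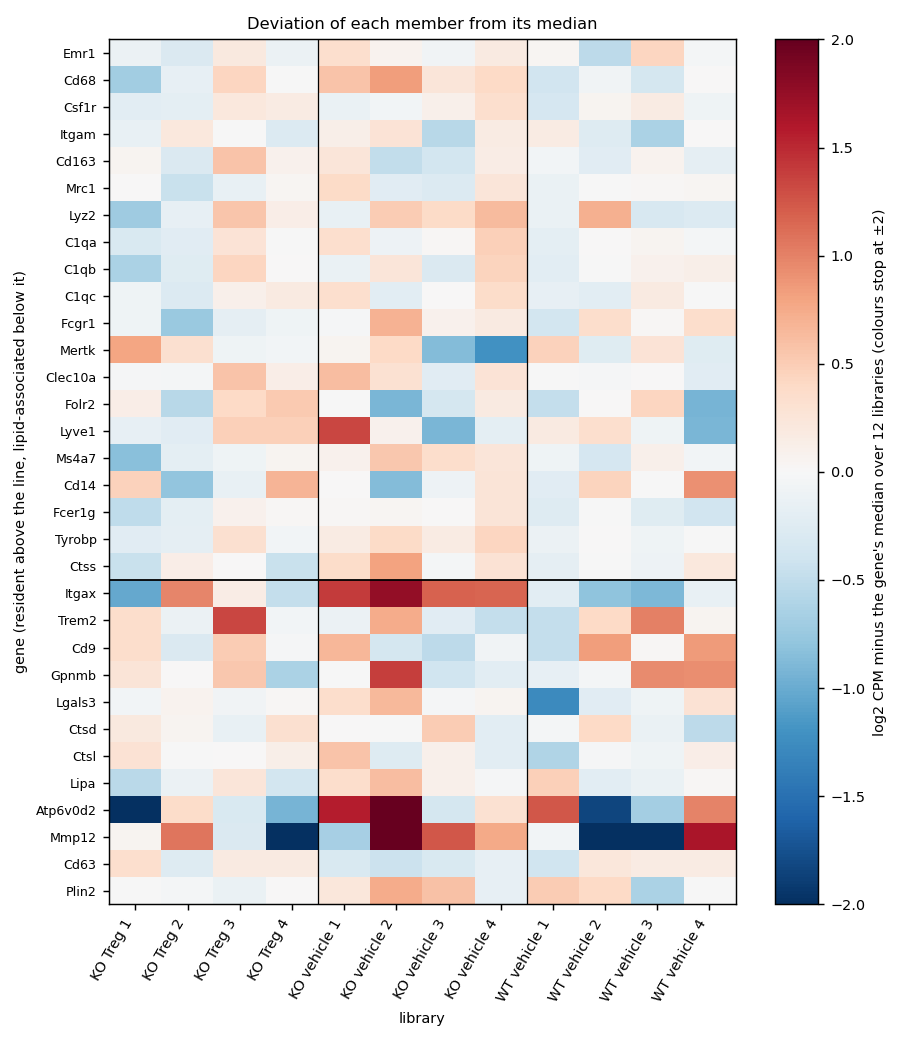
Log2 CPM of each tested member (rows) minus its median over the 12 libraries (columns, KO Treg, KO vehicle and WT vehicle from left to right), with colours that stop at ±2. Itgax is above its median in all 4 KO vehicle libraries, and KO vehicle 2 is the highest library for 7 of the 12 lipid-associated members.

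A score per library, the mean log2 CPM over the tested members, summarised each part. The resident score was 5.04 ± 0.20 in KO Treg, 5.18 ± 0.16 in KO vehicle and 5.02 ± 0.06 in WT vehicle. It read 4.88, 4.85, 5.27 and 5.15 in KO Treg, 5.30, 5.19, 4.95 and 5.29 in KO vehicle, and 4.95, 5.08, 5.07 and 4.99 in WT vehicle. KO vehicle 3 was no higher than the lowest WT vehicle library, and both KO Treg animals of the higher number series lay above both of the lower series. The lipid-associated score was 5.81, 6.04, 6.08 and 5.56 in KO Treg, 6.22, 6.68, 6.06 and 5.95 in KO vehicle, and 5.78, 5.70, 5.63 and 6.26 in WT vehicle. Only WT vehicle 4 reached the KO vehicle values among the WT vehicle libraries. Each member weighs the same in these scores, whatever its level. Summed CPM of the 13 lipid-associated members, in which Cd63 and Ctsd weigh most, gave another order. The sum was 7092 ± 731 CPM in KO Treg, 6565 ± 658 CPM in KO vehicle and 6732 ± 942 CPM in WT vehicle. The resident sum was 1561 ± 288, 1728 ± 246 and 1477 ± 91.2 CPM in those groups.

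The order of libraries was not the same for the 2 parts. The lipid-associated minus the resident score, compared across libraries and not between genes, was 0.83 ± 0.32 in KO Treg, 1.05 ± 0.35 in KO vehicle and 0.82 ± 0.32 in WT vehicle. The range was 0.41 to 1.19 in KO Treg, 0.67 to 1.495 in KO vehicle and 0.55 to 1.27 in WT vehicle, and the groups overlapped widely. KO vehicle 2 stood highest, and KO vehicle 4, with a resident score near the top, stood lowest of its group. Within WT vehicle, animal 4 had the highest lipid-associated score and a resident score under the group mean.

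**Figure D4:**
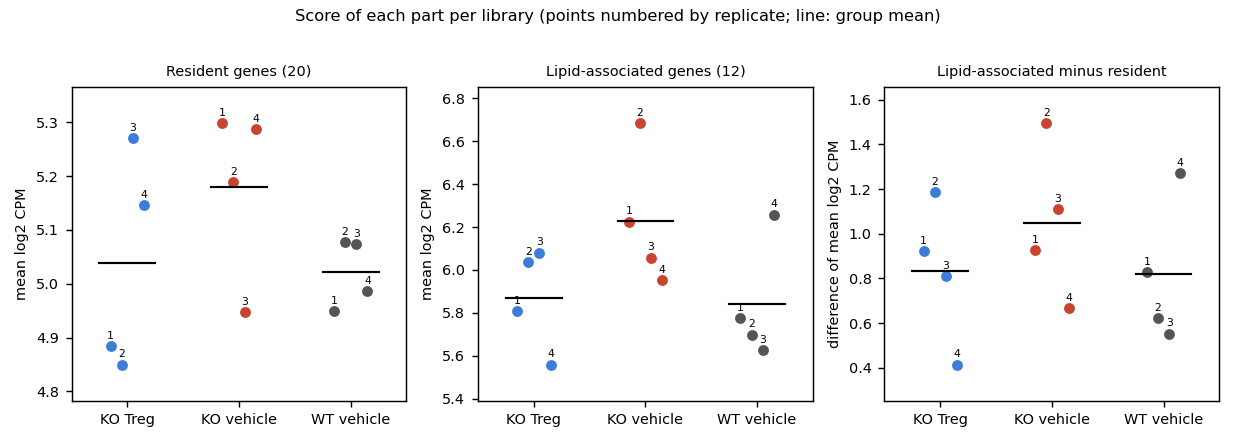
Mean log2 CPM of the 20 resident members (left) and the 12 tested lipid-associated members (middle), and their difference (right), for each library, with points numbered by animal and a line at the group mean. KO vehicle has the highest group mean of these log2 scores in each panel, and the groups overlap in each. The summed CPM of the lipid-associated members had its lowest group mean in KO vehicle.

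Further genes of macrophage biology were taken from 9 lists. Of 6 monocyte genes tested, 5 lay below 0 in KO vehicle against WT vehicle, among them Plac8 at 18.3 ± 4.34 CPM in KO vehicle and 27.5 ± 3.83 CPM in WT vehicle (adjusted p = 0.363). Ccr2, the chemokine receptor of recruited monocytes, was at 10.7 ± 5.63 CPM in KO vehicle and 11.8 ± 4.57 CPM in WT vehicle. None of the 6 was called in any comparison.

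Genes that signal below TREM2 and Fc receptors lay above 0 for 11 of 13 in KO vehicle against WT vehicle (median 0.28) and below 0 for 10 of 13 in KO Treg against KO vehicle (median -0.18), with none called. Syk, the kinase recruited by TYROBP and FCER1G, averaged 15.9 ± 3.64 CPM in KO Treg, 24.8 ± 4.52 CPM in KO vehicle and 17.9 ± 3.54 CPM in WT vehicle. Its difference was 0.48 ± 0.19 for KO vehicle against WT vehicle (adjusted p = 0.312) and -0.64 ± 0.20 for KO Treg against KO vehicle (adjusted p = 0.339). Hcst and Inpp5d, which encodes the phosphatase SHIP1, had KO Treg libraries below all KO vehicle libraries, with differences of -0.76 ± 0.24 and -0.48 ± 0.16. Spi1, which encodes PU.1, stood at 13.7 ± 2.36 CPM in KO Treg and 17.6 ± 0.490 CPM in KO vehicle, and those libraries did not overlap either (adjusted p = 0.521). Among the 13 growth factor and transcription factor genes, 7 lay above 0 in each of these comparisons.

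One gene of the 13 tested for scavenging and efferocytosis was called. Mfge8, which bridges dying cells to phagocytes and is made by many cells of fat, read 1645, 1408, 1749 and 1363 CPM in KO vehicle, against 811, 917, 663 and 934 CPM in WT vehicle. It rose in KO vehicle by 0.89 ± 0.17 (adjusted p = 0.0414, higher in 4 of 4 animals). The call was lost without any 1 of KO Treg 3, KO Treg 4, the 4 KO vehicle libraries or WT vehicle 1, 2 and 3 (highest adjusted p = 0.159), with the number series as a covariate (0.0937), in the lower series alone (0.252) and without the placental libraries (0.117), while the difference stayed between 0.78 and 0.95. KO Treg libraries, at 689 to 1215 CPM, lay below all KO vehicle libraries, with a difference of -0.63 ± 0.17 (adjusted p = 0.273). Marco, a scavenger receptor, averaged 6.04 ± 1.42 CPM in KO vehicle and 2.64 ± 1.08 CPM in WT vehicle without overlap (1.16 ± 0.33, adjusted p = 0.150).

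Lysosome genes were divided, with 12 of 25 above 0 in KO vehicle against WT vehicle and 17 of 25 below 0 in KO Treg against KO vehicle, and none called. Neu1, a lysosomal sialidase, averaged 80.6 ± 8.09 CPM in KO Treg, 106 ± 8.41 CPM in KO vehicle and 84.2 ± 9.55 CPM in WT vehicle, and the KO vehicle libraries lay above those of both other groups (adjusted p = 0.356 against KO Treg and 0.262 against WT vehicle). Npc1, another lysosome gene, had lower means in both knockout groups than in WT vehicle. It stood at 40.0 ± 3.67 CPM in KO Treg, 41.6 ± 7.04 CPM in KO vehicle and 55.0 ± 12.8 CPM in WT vehicle. Its difference from WT vehicle was -0.46 ± 0.17 in KO Treg and -0.40 ± 0.17 in KO vehicle (adjusted p = 0.345 for KO vehicle), with overlap and no call in either. Genes of cholesterol and lipid handling lay above 0 for 7 of 13 in KO vehicle against WT vehicle and below 0 for 9 of 13 in KO Treg against KO vehicle. Abcg1, a cholesterol exporter, was at 13.7 ± 3.55 CPM in KO Treg and 34.3 ± 16.6 CPM in KO vehicle without overlap (adjusted p = 0.499). In WT vehicle Abcg1 was at 19.4 ± 16.2 CPM. Apoe ran the other way, at 2980 ± 314 CPM in KO Treg, 2613 ± 252 CPM in KO vehicle and 3424 ± 622 CPM in WT vehicle. Its difference for KO vehicle against WT vehicle was -0.39 ± 0.15 (adjusted p = 0.268), with overlap.

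Genes of macrophage activation gave no call. Of 6 inflammatory genes tested, 5 lay above 0 in KO vehicle against WT vehicle, and Cxcl10 averaged 5.004 ± 1.81 CPM in KO vehicle and 0.936 ± 0.650 CPM in WT vehicle without overlap (adjusted p = 0.169). Il6 had no count in any library. Of 7 genes of alternative activation, 4 lay above 0 and 3 below in KO Treg against KO vehicle (median 0.007). Ccl24, an eosinophil chemokine, averaged 36.9 ± 3.45 CPM in KO Treg and 23.2 ± 4.18 CPM in KO vehicle without overlap (0.67 ± 0.19, adjusted p = 0.306). Retnla averaged 309 ± 82.2 CPM in KO Treg and 157 ± 76.4 CPM in KO vehicle (adjusted p = 0.446). Arg1 ran the other way, at 0.403 ± 0.648 CPM in KO Treg and 1.19 ± 1.04 CPM in KO vehicle (-1.47 ± 0.92, adjusted p = 0.705). In WT vehicle Arg1 averaged 0.961 ± 0.887 CPM. Of 5 osteoclast genes tested, 3 lay above 0 and 2 below in KO vehicle against WT vehicle. Mmp9, the gelatinase of this list, averaged 71.0 ± 23.4 CPM in KO vehicle and 41.0 ± 6.05 CPM in WT vehicle without overlap (0.79 ± 0.18, adjusted p = 0.0836). In KO Treg, Mmp9 averaged 58.9 ± 4.11 CPM, also above all WT vehicle libraries (0.52 ± 0.18). Ctsk and Itgb3 were lower in KO vehicle than in WT vehicle, by -0.40 ± 0.28 and -0.40 ± 0.29, with overlap.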

How the data were processed

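Gene expression was measured in 12 libraries of gonadal white fat, 4 a group. For each library the authors deposited whole-number read counts by gene symbol. Per the labels' protocols, total RNA was treated with DNase and made into QuantSeq 3′ libraries. HTSeq 0.6.1, TopHat2 2.1.1, BWA 0.7.12 and SAMtools 1.3.1 are named, with mm10, per the submitters' processing notes. Not given in the sources used here are the annotation, the strand setting and any treatment of PCR duplicates, so overlapping genes cannot be separated.

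Genes kept by filterByExpr (12175) were TMM-scaled and tested with the quasi-likelihood test of edgeR 4.0.16 (robust, 3 groups in 1 fit) in R 4.3.3, with Benjamini-Hochberg adjustment and a threshold of 0.05. CPM were computed from the deposited counts, and scores used a prior count of 2. The SE is the fold change divided by the square root of F. The fits were tested on simulated data. As alternatives, DESeq2 1.42.0, voom with quality weights in limma 3.58.1, upper quartile and RLE scaling, other filters, fits of 8 libraries, a non-robust fit, the number series and omission of libraries were used. The labels' numbers pair no samples, and replicate numbers follow the order of deposit.

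Members and lists were chosen with earlier results of these data known. Every member is named. Fold changes and adjusted p are given for the 4 members of smallest p in each part and comparison, and for others that the text sets beside them. Of other lists, fold changes or adjusted p are given for up to 3 genes of smallest p in a comparison. Some further genes of these lists are named by their level alone. Genes were located in GENCODE M21 (GRCm38). The floor of 3 counts covers counting error only.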

Additional observations from a re-analysis of the deposited data

Results flagged for a closer look

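In 6 of 108 sets of 4 libraries looked at, 99 of them 1 member in 1 group and 9 of them 1 of the 3 scores in 1 group, 1 library stood apart from the other 3 by a gap, as a share of the group's range, above Dixon's 95% critical value. Chance alone flags about 1 group in 20. Gpnmb in KO vehicle 2 was at 91.3 CPM, with the other KO vehicle libraries at 26.5 to 34.8 CPM. Fcer1g in KO vehicle 4 was at 31.99 CPM, with the others at 27.0 to 27.7 CPM. Among WT vehicle libraries, Lyz2 in WT vehicle 2 was at 109 CPM (others 53.6 to 60.7), Clec10a in WT vehicle 4 at 285 CPM (others 327 to 336), Cd63 in WT vehicle 1 at 2188 CPM (others 3233 to 3382) and Spp1 in WT vehicle 4 at 0.507 CPM (others 0), which was 4 counts.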

How the results depend on the processing

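Itgax was the member called in any alternative: 1 member was called for KO vehicle against WT vehicle with DESeq2 and in the fit of 8 libraries, and 0 to 1 when libraries were left out in turn. Genes called for that comparison numbered 34, against 259 with DESeq2, 0 with the number series as a covariate, 0 in the lower series alone, 3 without the 2 libraries with placental transcripts, and 1 to 125 when libraries were left out in turn. For KO Treg against KO vehicle they numbered 1, against 68 with DESeq2 and 0 with RLE scaling, with the filter of 1 CPM, in the fit of 8 libraries, with the covariate, in the lower series alone, in the fit that was not robust, without the placental libraries and in every fit that left out 1 library. For KO Treg against WT vehicle they numbered 0, and 1 with DESeq2. The resident median moved to 0.32 for KO vehicle against WT vehicle with the covariate, and in the lower series alone to -0.36 for KO Treg against KO vehicle and to -0.13 for KO Treg against WT vehicle. Clec10a changed sign for KO Treg against WT vehicle in the lower series alone, at -0.01. The cause of these changes was not tested. The lower series holds 2 KO Treg and 2 WT vehicle animals. No paired analysis was possible because the labels' numbers pair no samples. Depth limits Spp1, Mertk, Itgax, Mmp12 and Atp6v0d2, with as few as 0 to 7 counts in a library.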
